A study of Mus musculus with 32 samples.

Results

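Of 23844 merged Ikaros (IKZF1) regions in mouse pre-B cells, 610 were called in both libraries at 1 h and both at 2 h after Ikaros activation and in no library before activation or at 30 min. These 610 regions, called late regions here, are 2.56% of all merged regions and were chosen by the Ikaros peak calls themselves, so their Ikaros timing and their Ikaros peak heights are given as a description with no test. The merged regions are the union of peaks from the 8 Ikaros lists, and a region counted as called in a library if at least 1 bp of it overlapped a peak of that library. CHD4 and H3K27ac calls, distance to a transcription start site (TSS) and nearby genes were not used to choose them. Of the late regions, 348 of 610 (57.0%) lay within 1 kb of a TSS, against 47.5% of all merged regions, and 515 of 610 (84.4%) were called for H3K27ac in both 0 h libraries, from cells that had not been induced, against 76.2% of all merged regions. CHD4 was called at 6.56% and 23.9% of them in the 0 h libraries and at 24.4% and 49.8% in the 2 h libraries, against 10.1% and 25.4%, and then 17.7% and 36.9%, of all merged regions. The late regions' share had a trend over the 8 libraries whose adjusted p was 0.122 in the exact permutation test.

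The study used ChIP-seq in the mouse line B3, whose cells resemble pre-B progenitors, to ask what Ikaros binding does to CHD4 recruitment and H3K27ac soon after induction. The cells were transduced with a retroviral vector carrying HA-Ikaros-ERt2, a fusion that 4-hydroxytamoxifen (4-OHT) moves into the nucleus, and were sorted on the GFP that the vector also carries. All 4 groups were of these transduced cells. The 0 h group received no 4-OHT, and the 30 min, 1 h and 2 h groups were collected at those times after 500 nM 4-OHT. Each group had 2 libraries for each of HA-Ikaros (anti-HA), CHD4 and H3K27ac, which gave 24 peak lists, and 8 input samples were not analysed here. The cells keep their own Ikaros family members, among them IKZF3, and the anti-HA antibody sees the fusion alone. Nothing in the sources says that the replicates were separate cultures, so p-values measure only the spread between these libraries.

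Ikaros is a zinc finger transcription factor of lymphocyte development that binds sites with a GGAA or GGGA core and acts on both active and silent genes. CHD4 is the chromatin remodelling ATPase of the NuRD complex, which also carries histone deacetylases and is a main partner of Ikaros. H3K27ac marks the histones of active promoters and enhancers, and NuRD deacetylases can remove it. Ikaros is known to restrain pre-B cell receptor signalling and proliferation in this cell type.

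The sequences of 9 late regions are shown because they carry strong Ikaros peaks of the set, or the CHD4 and H3K27ac changes described below. Each is the plus strand of mm10, with 50 bases to each side of the summit of the higher 2 h Ikaros peak. Capitals mark GGAA or its complement TTCC, and GGGA or its complement TCCC. The first 5 are from the regions of highest Ikaros rank, the next pair gained CHD4 calls, the Gm25264 region lost its H3K27ac calls and the Dapk2 region gained them.
Gm27940, 567 bp from its TSS, chr1:195241676-195241776: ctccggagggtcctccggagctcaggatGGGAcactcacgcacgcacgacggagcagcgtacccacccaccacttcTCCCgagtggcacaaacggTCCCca
Foxo3 intron, chr10:42220597-42220697: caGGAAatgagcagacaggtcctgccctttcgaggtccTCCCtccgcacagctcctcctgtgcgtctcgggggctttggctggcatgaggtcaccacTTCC
Rpl15 and Nkiras1 promoter, chr14:18271146-18271246: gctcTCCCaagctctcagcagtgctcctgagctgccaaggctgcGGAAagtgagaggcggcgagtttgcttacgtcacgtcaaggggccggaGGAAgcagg
Senp2 promoter, chr16:22009261-22009361: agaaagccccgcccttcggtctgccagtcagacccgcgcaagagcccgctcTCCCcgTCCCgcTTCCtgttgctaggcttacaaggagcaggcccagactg
Dnase2a promoter, chr8:84908493-84908593: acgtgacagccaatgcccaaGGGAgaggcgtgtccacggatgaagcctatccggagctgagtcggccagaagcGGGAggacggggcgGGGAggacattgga
Abtb2 intron, chr2:103682391-103682491: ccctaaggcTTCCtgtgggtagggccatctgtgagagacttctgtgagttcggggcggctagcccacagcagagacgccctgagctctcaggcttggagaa
Orc5 promoter, chr5:22550460-22550560: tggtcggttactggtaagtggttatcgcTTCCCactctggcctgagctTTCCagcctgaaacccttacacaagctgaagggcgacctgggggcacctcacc
Gm25264, intergenic, chr2:46547352-46547452: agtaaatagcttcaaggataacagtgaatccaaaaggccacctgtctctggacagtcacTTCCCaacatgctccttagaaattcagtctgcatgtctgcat
Dapk2, intergenic, chr9:66280853-66280953: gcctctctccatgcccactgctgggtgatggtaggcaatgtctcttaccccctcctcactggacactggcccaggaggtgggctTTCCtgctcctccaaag
All 9 windows held at least 1 of these cores, and the Orc5 and Gm25264 windows held both cores fused as TTCCCA, the reverse complement of TGGGAA.

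Among the late regions of highest Ikaros rank, those described here were 5 regions at or near a TSS and 2 introns. Values are the peak's fold over its local background, in the order 1 h replicate 1, 1 h replicate 2, 2 h replicate 1 and 2 h replicate 2, with no value at 0 h or 30 min because no peak was called there. The region beside Gm27940 (chr1:195241574-195241872), an annotated small RNA of the misc_RNA type, had the most fragments at its summit, 129, 115, 106 and 126. Its folds were 12.6, 7.31, 6.44 and 8.27. Its local background was 3.71 to 6.75 times the library mean, so its fold was less extreme than its height. Over all late regions the median height was 17.0 fragments in both 1 h libraries.

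An intron of Foxo3 (chr10:42220508-42221124), the forkhead factor of quiescence and cell death acting downstream of PI3K and AKT, had folds of 9.38, 11.1, 5.37 and 11.2 and lay 37242 bp from the TSS. The shared promoter of Rpl15, a ribosomal protein of the large subunit, and Nkiras1, an inhibitor of NF-κB signalling (chr14:18270841-18271860), had folds of 6.56, 9.90, 7.79 and 6.57. In the Foxo3 intron 3 of the 4 libraries were high and 2 h replicate 1 was lower, and at the Rpl15 promoter 1 h replicate 2 stood above the rest. The promoter of Senp2, a protease that removes SUMO from proteins (chr16:22008671-22009495), had folds of 9.47, 8.04, 7.59 and 5.76. The promoter of Dnase2a, a lysosomal DNase (chr8:84908169-84908983), had folds of 8.24, 6.00, 5.87 and 8.00. At these promoters the lowest library was still above the median late region of its list.

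The intron of Panx1, a membrane channel (chr9:15029669-15030436), had folds of 9.94, 9.43, 4.90 and 5.76, with both 1 h libraries above both 2 h libraries. The promoter of Srsf11, an SR-type splicing factor (chr3:158031077-158031979), had folds of 10.1, 5.78, 5.42 and 6.40. Of these 7 regions, 6 were called for H3K27ac in all 8 lists, and the Panx1 intron was called in 2 h replicate 1 alone. None was called for CHD4 in all 8 lists, and the number of CHD4 lists ran from 1 (Senp2, Panx1 and Srsf11) to 4 (Foxo3).

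Over all late regions the Ikaros peaks were of middling height for their lists. The median fold was 4.55 and 4.62 in the 1 h libraries and 4.16 and 4.80 in the 2 h libraries, and the median percentile rank within the list ran from 41.1 to 50.9. Regions new by 30 min, meaning called in both libraries of 30 min, 1 h and 2 h and at neither 0 h library (312 regions), had median folds of 5.11, 5.26, 4.73 and 5.58 in the same 4 libraries. Peak height per unit of coverage differed little between times at the late regions, with a median log2 difference of 2 h against 1 h of -0.09 in replicate 1 and -0.02 in replicate 2 (SD over regions 0.37 and 0.38). Replicate 2 was higher than replicate 1 at both times, by a median log2 of 0.25 at 1 h and 0.26 at 2 h, so the replicates differed by more than the times.

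**Figure D1:**
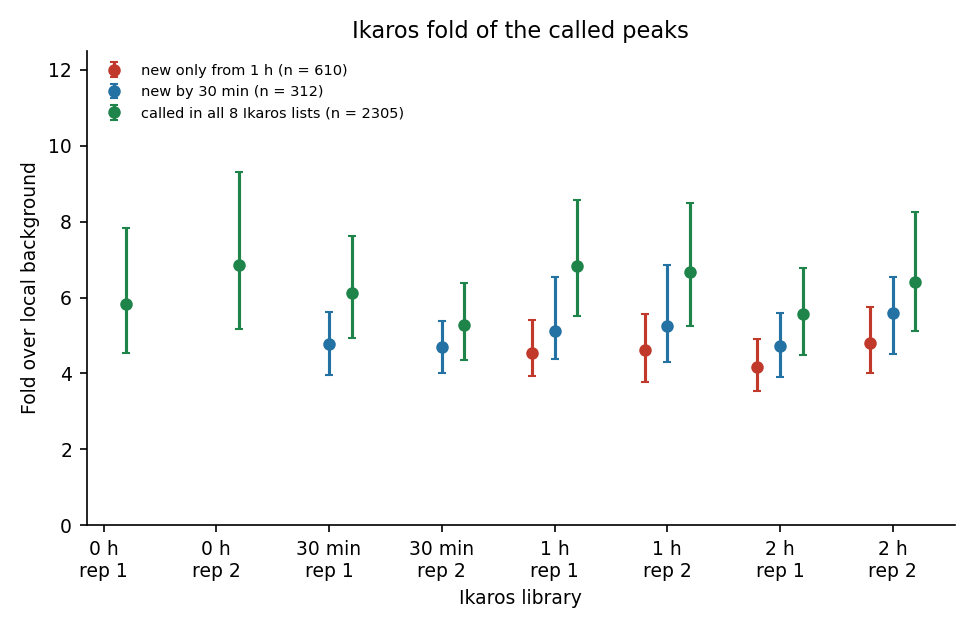
Fold over local background of the called Ikaros peaks in each Ikaros library, with points for the median and bars for the lower and upper quartile over regions. Late regions (red, n = 610) have medians of 4.16 to 4.80 in the 1 h and 2 h libraries and no value before, since no peak was called there by the rule, and regions called in all 8 lists (green, n = 2305) have the higher median in each library.

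The rule has a sharp edge in peak calling. The weakest of the 4 later peaks had a median −log10 q of 3.06 at late regions, against 4.45 at regions new by 30 min and 7.11 at the 2305 regions called in all 8 lists. The 3 late regions closest to the threshold lay by Shb, an SH2 adaptor (weakest −log10 q 1.33), by Gm25307 (1.34) and at Mirlet7i, a let-7 microRNA gene (1.34). Just outside were a region by Gm28502 with a weakest called peak of 27.6, missed in 1 h replicate 1, the Shprh promoter at 16.6, missed in 2 h replicate 1, and a region by Gm14009 at 16.2, which was called in all 4 later lists and also in 30 min replicate 1. The Gm28502 folds were only 1.47 to 1.55, on a high local background. In all, 2002 regions were 1 list away from the rule, a margin set after the data had been seen, of which 1115 lacked 1 later list and 887 had 1 earlier list. Of the 1519 regions called in all 4 later lists and in no 0 h list, 610 were in no 30 min list, 597 in 1 and 312 in both. Of those 597, 486 were called in 30 min replicate 1 and 111 in replicate 2, whose list was the shortest of the 8.

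List length bears on what counts as new. The Ikaros lists held 7822 and 9527 peaks at 0 h, 9181 and 5373 at 30 min, 12447 and 14874 at 1 h and 14225 and 14179 at 2 h, and 5734 regions were called in both 0 h libraries, before any 4-OHT. The weakest peak in the 30 min replicate 2 list had a −log10 p of 4.26, against 3.79 to 3.88 in the 4 later lists. When every Ikaros list was limited to the same number of its strongest peaks, the rule applied afresh gave 77 late regions of 12657 merged regions, and 177 new by 30 min. Of these 77, 25 overlapped one of the 610. The 0 h libraries were the deepest of the 8 and 30 min replicate 2 the shallowest. The mean coverage recovered from the files was 3.59 and 3.13 fragments per base at 0 h, 2.54 and 1.98 at 30 min, 2.52 and 2.23 at 1 h and 2.85 and 2.12 at 2 h. Scaled to each earlier library's coverage, the peak heights of the 4 later lists would have been over the weakest peak called in 0 h replicate 1 at 100% of late regions, in 0 h replicate 2 at 97.7 to 100%, in 30 min replicate 1 at 95.4 to 99.8% and in 30 min replicate 2 at 80.8 to 95.2%. The same projection among the 4 later lists, where all were called, gave 89.8 to 100%. The projection uses the heights the rule selected and is a description.

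Regions were also chosen by the calls of 1 replicate and read in the lists of the other, to which the rule was not applied. The lists being read still helped to set the merged regions, and they are among the lists that define the late regions. The shares that follow are therefore a description and no independent test of late timing. The rule applied to replicate 1 alone chose 1735 regions, and the replicate 2 lists of 0 h, 30 min, 1 h and 2 h called 21.4%, 15.1%, 71.9% and 70.9% of these. Over all merged regions those lists called 37.2%, 21.0%, 58.8% and 55.7%. Applied to replicate 2 alone it chose 3182 regions, and the replicate 1 lists called 15.7%, 35.3%, 61.5% and 63.6% of them, against 30.3%, 35.0%, 48.2% and 54.4% of all merged regions. The merged regions include those that exist through a call in the very list being read, so the shares over all regions are given for scale and are no independent background. The like class for the 30 min call is regions that the same replicate placed as new by 30 min. Replicate 2 placed 834 regions so, and the replicate 1 lists called 67.1% of them at 30 min and 23.3% at 0 h, against 35.3% and 15.7% of the regions replicate 2 placed as new only from 1 h. Replicate 1 placed 1865 regions as new by 30 min, and the replicate 2 lists called 41.7% of them at 30 min and 45.5% at 0 h, against 15.1% and 21.4%. In both directions the other replicate's 30 min list thus called fewer of the late-placed regions than of those placed as new by 30 min. Its 0 h, 1 h and 2 h lists did too. The replicate 1 lists of 1 h and 2 h called 61.5% and 63.6% of the late-placed regions, against 80.7% and 83.7%. The replicate 2 lists called 71.9% and 70.9%, against 90.0% and 88.0%. The lower share was thus present at each time and not at 30 min alone.

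As facts of the whole series, H3K27ac at 0 h lay within 1 kb of a TSS of 11 of 12 pre-B markers, all but Rag1. It lay there at 2 of 6 T cell markers (Cd3d and Zap70), 0 of 6 myeloid markers and 2 of 4 erythroid markers (Klf1 and Hbb-bs), and the part of other cells in the results was not tested. H3K27ac lists held 21468 to 33664 peaks at a coverage of 3.75 to 4.34 fragments per base. CHD4 lists held 2488 to 9593 peaks at a depth that is unknown, since the broad format keeps no summit height. Local background exceeded 2 times the mean coverage at 11 to 57 late regions in each later Ikaros library, and was highest at a region in Dock2, a Rac activator of lymphocytes, at 9.33 to 14.5 times.

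Late regions were more often promoter regions than the regions new by 30 min. A TSS lay within 1 kb of 348 late regions, 57.0% (95% Wilson interval 53.1 to 60.9, counting error only), and inside 264 of them. The share within 1 kb was 42.3% of regions new by 30 min, 52.8% of regions called in all 8 lists and 47.5% of all merged regions. The median distance to a TSS was 266 bp, against 2779 bp, 505 bp and 1258 bp in those 3 classes. Beyond 10 kb lay 123 late regions (20.2%), against 30.8% of regions new by 30 min. Late regions were also narrower than regions new by 30 min, with a median of 875 bp against 1181 bp, and width itself depends on how many lists were merged and how strong they were. No test was run, since regions share libraries and are not replicates.

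**Figure D2:**
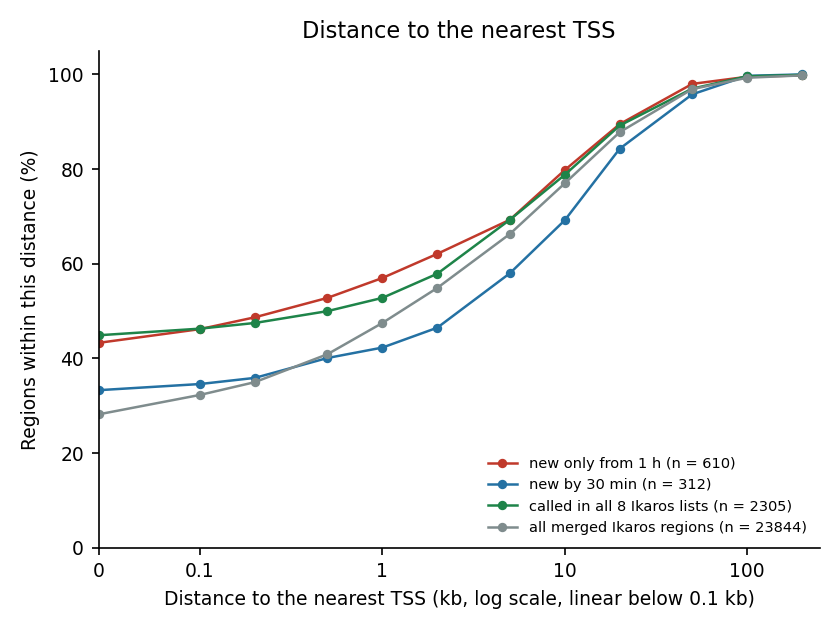
Share of regions (percent) whose nearest annotated TSS lies within the distance on the x axis (kb, log scale, linear below 0.1 kb). Late regions (red) reach 57.0% at 1 kb, above regions new by 30 min (blue, 42.3%) and all merged regions (grey, 47.5%).

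By the feature at their centre, 235 late regions were intronic (38.5%) and 229 intergenic (37.5%). A further 70 were in a UTR (11.5%), 40 in a coding exon (6.56%) and 36 in an exon of a non-coding transcript (5.90%). Over all merged regions these shares were, in the same order, 45.0%, 35.8%, 9.23%, 3.91% and 5.97%. Promoters just upstream of a TSS count as intergenic here. Chromosome 11 held the most, 68 (11.1%, against 8.97% of all merged regions), and the X chromosome held 3. Within 5 kb of another late region lay 15 late regions (2.46%), as did 2.24% of regions new by 30 min and 1.91% of regions called in all 8 lists. Within 5 kb of a region called at 0 h lay 82 late regions (13.4%). That second share was 17.3% for regions new by 30 min and 21.5% for regions called in all 8 lists, which were measured against other 0 h regions.

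The GC content of late regions was 55.8% in the central 101 bp and 49.3% in flanks 400 to 500 bp away. It was 53.1% and 47.5% at regions new by 30 min and 56.5% and 50.2% at regions called in all 8 lists. Promoter late regions had a CpG observed-over-expected ratio of 0.70, against 0.53 at promoter regions new by 30 min and 0.57 at promoter regions called in all 8 lists. Words were searched on both strands in the central 101 bp and in the flanks, as a description with no test, and a word found is not a bound site. GGAA was present in 74.8% of late summits and 63.7% of flanks, GGGA in 77.4% and 63.0%, and the longer Ikaros word TGGGAA, which contains both, in 9.18% and 6.89%. At regions called in all 8 lists GGAA was at 83.8% and 70.1%, and TGGGAA at 15.7% and 10.4%. CCGGAAG, an ETS factor word that contains GGAA, was in 5.25% of late summits and 0.738% of flanks, with 28 of its 32 regions at promoters. It was in 1.92% of summits of regions new by 30 min and 3.99% of those called in all 8 lists. TGTGGT, a RUNX word, was in 16.8% of distal late summits and 8.02% of their flanks. It was in 15.6% and 11.7% at distal regions new by 30 min, and in 13.8% and 8.27% at distal regions called in all 8 lists. CCAAT was no more frequent at late summits (9.18%) than in flanks (10.2%). The words other than the Ikaros cores were picked with the class definitions already in hand.

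CHD4 was called at few late regions before activation and at more of them in the 1 h and 2 h libraries. The share was 6.56% and 23.9% in the 0 h libraries, 14.8% and 9.84% at 30 min, 30.3% and 29.5% at 1 h, and 24.4% and 49.8% at 2 h. Every 1 h and 2 h library was above every 0 h and 30 min library, though 2 h replicate 1 (24.4%) was above 0 h replicate 2 (23.9%) by 3 regions. Both 0 h libraries called CHD4 at 30 late regions, both 30 min libraries at 29, both 1 h libraries at 97 and both 2 h libraries at 110. As shares these were 4.92%, 4.75% and 15.9% at the first 3 times, against 8.21%, 8.43% and 13.1% of all merged regions, whose 2 h share was 13.3%.

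Two-sided exact permutation over the 8 libraries gave Spearman's rho 0.78 with time (p = 0.0349, adjusted p = 0.122 over 7 trends). Pearson's r was 0.72 (permutation p = 0.0417, adjusted p = 0.127), and 0.64 without both 2 h libraries. A comparison of 2 libraries against 2 cannot go below p = 0.333 in an exact test. The 0 h replicate 2 and 2 h replicate 2 lists were the longest CHD4 lists, 6000 and 9593 peaks against 2488 and 5523 in the other replicate. With all CHD4 lists limited to their 2488 strongest peaks the share at late regions was 6.56% and 7.70% at 0 h, 8.69% and 6.23% at 30 min, 13.0% and 14.8% at 1 h, and 13.0% and 13.9% at 2 h. In lists of that length r was 0.80 (permutation p = 0.0202, adjusted p = 0.0472) and passed, while rho was 0.76 (exact permutation p = 0.0397, adjusted p = 0.0926) and did not. With CHD4 peaks limited to a −log10 q of at least 3, r was 0.53 (permutation p = 0.161, adjusted p = 0.562), and without CHD4 2 h replicate 2 it was 0.54 (permutation p = 0.213, adjusted p = 0.496). The late regions' CHD4 share minus that of all merged regions was -3.52, -1.43, -2.26 and -4.17 percentage points in the 0 h and 30 min libraries and 7.41, 8.64, 6.72 and 13.0 in the 1 h and 2 h libraries. That difference, a trend added after the data had been seen, had rho 0.73 (exact permutation p = 0.0548, adjusted p = 0.146 over 8) and r 0.85 (permutation p = 0.00992, adjusted p = 0.0698), with r 0.82 without 2 h.

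Compared with other Ikaros classes, late regions had fewer CHD4 calls at each time. Mean CHD4 shares at 0 h, 30 min, 1 h and 2 h were 15.2%, 12.3%, 29.9% and 37.1% at late regions and 33.7%, 47.4%, 60.3% and 62.2% at regions new by 30 min. Regions called in all 8 Ikaros lists had a mean of 55.5% at 0 h, 68.2% at 1 h and 66.3% at 2 h. The gap to regions called in all 8 lists was -40.2 ± 6.18 points at 0 h and -29.2 ± 3.38 at 2 h (SD, n = 2). Its trend had rho 0.68 (exact permutation p = 0.0825, adjusted p = 0.193) and r 0.71 (permutation p = 0.0544, adjusted p = 0.127), with r 0.15 without both 2 h libraries. This trend depended on the setting, with rho 0.05 for CHD4 peaks of −log10 q of at least 3 and 0.15 at promoters. In distal regions rho was 0.78 (exact permutation p = 0.0349, adjusted p = 0.122) and r 0.89 (permutation p = 0.00437, adjusted p = 0.0236). The gap to regions new by 30 min was -12.4 and -24.5 percentage points in the 0 h libraries, -36.2 and -34.1 at 30 min, -33.1 and -27.5 at 1 h and -22.4 and -27.7 at 2 h. The 30 min values were the lowest, with 0 h and 2 h above them, a shape that a test of a monotone trend does not cover. Its rho was -0.10 (exact permutation p = 0.861, adjusted p = 1.00).

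**Figure D3:**
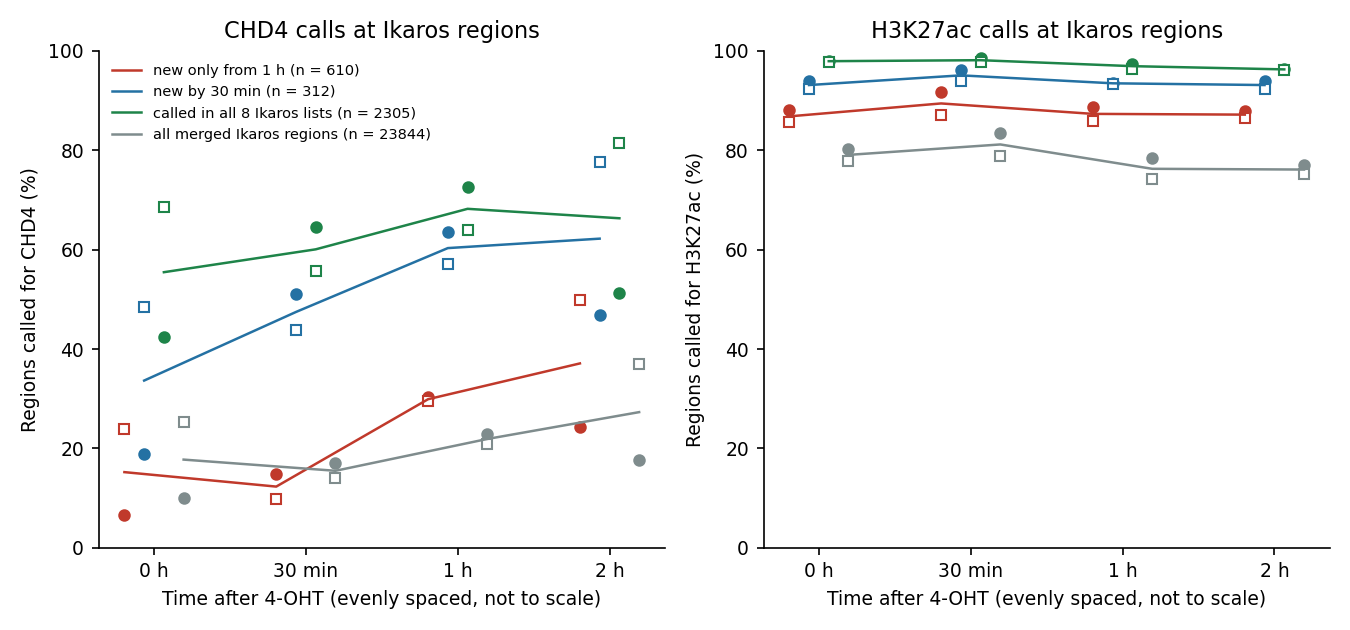
Percent of regions called for CHD4 (left) and H3K27ac (right) in each library against time after 4-OHT (evenly spaced, not to scale), with filled circles for replicate 1, open squares for replicate 2 and lines through the means. CHD4 calls at late regions (red) run from 6.56 to 23.9% in the 0 h libraries to 24.4 to 49.8% in the 2 h libraries, while their H3K27ac calls stay between 85.6 and 91.8%.

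No CHD4 list called 173 late regions (28.4%), all 8 called 9 (1.48%), and 2 h replicate 2 alone called 74 (12.1%). The same shares were 45.4%, 2.90% and 7.98% of all merged regions, 8.01%, 8.33% and 4.49% of regions new by 30 min and 4.16%, 20.7% and 2.65% of regions called in all 8 Ikaros lists. CHD4 was gained, meaning called in both 2 h and neither 0 h list, at 46 late regions (7.54%), against 3.86% of all merged regions, 11.9% of regions new by 30 min and 6.20% of regions called in all 8 lists. It was called in both 1 h and both 2 h and neither 0 h list at 9 (1.48%), against a background of 1.01%, and at 20 of 312 regions new by 30 min (6.41%). CHD4 was lost, the reverse, at 1 late region (0.164%, background 1.01%). CHD4 gains were as frequent at promoter late regions (26 of 348, 7.47%) as at distal ones (20 of 262, 7.63%). At regions called in all 8 Ikaros lists they were 115 of 1217 promoter regions (9.45%) and 28 of 1088 distal regions (2.57%). Regions new by 30 min were as even as late regions, with CHD4 gains at 11.4% of promoter and 12.2% of distal regions. Over all merged regions the shares were 4.66% and 3.14%. The CHD4 share itself was higher at distal late regions in every library, from 9.92% against 4.02% in 0 h replicate 1 to 63.4% against 39.7% in 2 h replicate 2. The same held in every library for regions new by 30 min and for regions called in all 8 Ikaros lists. In 0 h replicate 1 these had 23.9% against 12.1% and 56.6% against 29.7%. Over all merged regions it held in every library but 2 h replicate 1 (17.3% against 18.2%). All 46 gains fell on the 492 late regions called for H3K27ac in all 8 lists (9.35%), and none on the 38 in no H3K27ac list or the 80 in some. Over all merged regions CHD4 was gained at 5.02% of those in all 8 H3K27ac lists, 0.929% of those in none and 1.87% of those in some.

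The strongest Ikaros regions among those 9 gains had CHD4 folds between 2.80 and 4.16 in the 1 h and 2 h lists. In the intron of Abtb2 (chr2:103682303-103683250) CHD4 was called at folds of 3.81 and 3.82 at 1 h and 3.01 and 2.80 at 2 h, and in no earlier list. At the promoter of Orc5, a subunit of the origin recognition complex (chr5:22549887-22550964), CHD4 folds were 3.39, 3.47, 2.94 and 3.16 in the same order, also with no earlier call. The region near the small nuclear RNA gene Gm24830 (chr3:96333574-96334456) had 3.91, 3.20, 3.15 and 3.61 and no earlier call. The choice of these regions fixed the CHD4 calls at 0 h, 1 h and 2 h, so the absence of a 30 min call is the part that was free at these 3. The promoter of Slc38a1, a glutamine transporter (chr15:96642559-96643930), had 3.87, 4.16, 3.70 and 2.96 and was also called in 30 min replicate 1 at 3.28. An intronic region near the annotated ribozyme gene Gm26464 (chr10:42825605-42827020) had 2.98, 3.49, 2.96 and 3.28 and was called in 30 min replicate 2 at 3.30. All 5 regions stayed called for H3K27ac in all 8 lists. H3K27ac fold at the Orc5 promoter was 31.9 and 23.5 at 0 h and 33.1 and 26.6 at 2 h. At the Slc38a1 promoter it was 31.7 and 26.9 at 0 h and 25.2 and 21.6 at 2 h. These folds are from single lists and were not tested.

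H3K27ac calls at late regions were present from the start and changed little. The share called was 88.0% and 85.6% at 0 h, 91.8% and 87.0% at 30 min, 88.7% and 85.9% at 1 h and 87.9% and 86.4% at 2 h. Over all merged regions it was 80.3%, 77.8%, 83.4%, 78.9%, 78.4%, 74.1%, 77.0% and 75.2% in the same order, below the late regions in each library. Mean shares at late regions were 86.8% ± 1.74 at 0 h and 87.1% ± 1.04 at 2 h (SD, n = 2), with rho 0 (exact permutation p = 1.00, adjusted p = 1.00) and r -0.10 (permutation p = 0.835, adjusted p = 0.899). All 8 lists called 492 late regions (80.7%), no list called 38 (6.23%), and 80 were called in some lists. For comparison, all 8 lists called 67.1% of all merged regions, 89.4% of regions new by 30 min and 94.4% of regions called in all 8 Ikaros lists.

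H3K27ac was lost, called in both 0 h and neither 2 h list, at 5 late regions (0.820%), against 2.82% of all merged regions, and gained, the reverse, at 3 (0.492%), against 1.04%. Both shares were below the background, as they were in regions new by 30 min (0.641% lost, 0.321% gained) and in regions called in all 8 Ikaros lists (0.911% and 0.217%). The gained count was 6 with Ikaros peaks of −log10 q of at least 3 and 7 with 50% overlap, and the lost count was 3 and 8. An intergenic region 59343 bp from Gm25264 (chr2:46547108-46547740) had H3K27ac folds of 2.98 and 3.64 at 0 h, 4.63 and 3.91 at 30 min, 3.74 and 4.16 at 1 h, and no call at 2 h. The intron of Ksr1, a scaffold of Ras and MAPK signalling (chr11:79076232-79076962), had 4.77 and 4.76 at 0 h, 2.82 and 4.68 at 30 min and 6.02 in 1 h replicate 1. Beside the TSS of Mpzl2, an immunoglobulin-like adhesion protein (chr9:45040558-45041036), the folds were 4.41 and 3.72 at 0 h, 5.26 and 3.91 at 30 min and 4.09 in 1 h replicate 1. These 3 calls lasted until at least 1 of the 1 h libraries at folds of 6.02 or less. In the intron of Syt11, a synaptotagmin (chr3:88753830-88754506), the folds were 4.59 and 3.37 at 0 h, 2.65 in 30 min replicate 1 and 3.12 in 1 h replicate 2. The promoter of Igfbp4, a secreted IGF-binding protein (chr11:99040847-99041670), had 20.8 and 3.03 at 0 h and 5.05 in 30 min replicate 1 and no call after, so its 0 h libraries differed from each other more than any other of the 5. CHD4 was called in no list at the Gm25264 region, in 1 at Mpzl2, 2 each at Ksr1 and Syt11, and 3 at Igfbp4, 0 h replicate 2 among them.

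The 3 gains were intergenic and at low folds. A region 11907 bp from the TSS of Dapk2, a calmodulin-regulated kinase (chr9:66280281-66282259), had 2.95 in 30 min replicate 1, 4.09 and 2.56 at 1 h and 3.18 and 3.48 at 2 h. CHD4 was called there in both 1 h lists and 2 h replicate 2. A region near the long non-coding RNA gene Gm5122 (chr9:60998749-60999517) was called at 5.26 and 4.68 at 30 min, 5.32 and 2.67 at 1 h and 3.96 and 4.24 at 2 h. That acetylation call came before the Ikaros call, which the rule places at 1 h. A region 24843 bp from the TSS of Akap1, an anchor of protein kinase A (chr11:88816009-88816697), had 3.09 in 30 min replicate 1 and 2.47 and 3.67 at 2 h.

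Where H3K27ac was called throughout, its level was followed as a rank. H3K27ac regions called in all 8 lists (14715 of 39289) were ranked by fold within each library, as a percentile, and 460 of them overlapped a late region and neither of the other 2 classes. Their mean rank was 57.2 and 56.5 at 0 h, 58.3 and 58.2 at 30 min, 60.1 and 60.6 at 1 h and 59.3 and 61.0 at 2 h. The 1993 that overlapped only regions called in all 8 Ikaros lists had 71.0 and 70.5, then 67.1 and 67.8, 66.0 and 66.1, and 66.5 and 65.9. The late class was thus -13.9 ± 0.109 points from it at 0 h and -6.03 ± 1.69 at 2 h (SD, n = 2). It had rho 0.88 with time (exact permutation p = 0.0103, adjusted p = 0.0722) and r 0.82 (permutation p = 0.0175, adjusted p = 0.122), with r 0.99 without 2 h. A rank is relative within a library, so a higher rank in one class can go with a lower rank in another, and absolute acetylation was not measured.

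In distal regions alone the narrowing of the gap to regions called in all 8 Ikaros lists passed the test. The distal late class (136 H3K27ac regions) had mean ranks of 45.8 and 42.0 at 0 h, 45.3 and 41.5 at 30 min, 49.0 and 49.1 at 1 h and 51.1 and 48.8 at 2 h. The 713 distal regions with Ikaros in all 8 lists had 67.0 and 65.3 at 0 h and 61.4 and 59.3 at 2 h. The difference ran -21.2, -23.3, -15.0, -19.4, -11.0, -10.8, -10.4 and -10.5 from 0 h to 2 h, with rho 0.98 (exact permutation p = 7.94e-04, the smallest these pairings can give, adjusted p = 0.00556). Pearson's r was 0.86 (permutation p = 0.00675, adjusted p = 0.0236), and 0.96 without 2 h. Against distal H3K27ac regions without Ikaros (1144), whose mean ranks were 18.2 and 18.7 at 0 h and 26.5 and 23.2 at 2 h, the distal late class had a difference whose rho with time was 0 (exact permutation p = 1.00, adjusted p = 1.00). In promoter regions alone the difference from regions called in all 8 Ikaros lists ran from -11.3 and -10.8 at 0 h to -6.60 and -3.37 at 2 h, with rho 0.78 (exact permutation p = 0.0349, adjusted p = 0.122). Whether distal and promoter regions differed from each other was not tested.

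Against H3K27ac regions without any Ikaros region (2848) no trend of the late class passed the test, and the rank difference of 24.9 ± 1.05 at 0 h compared with 24.2 ± 1.39 at 2 h had a rho of -0.15 (exact permutation p = 0.761, 1.00 after adjustment). Ranked by summit fragments in place of fold, the same difference had rho -0.78 (exact permutation p = 0.0349, adjusted p = 0.122) and r -0.80 (permutation p = 0.0187, adjusted p = 0.0951). Against regions new by 30 min (245) the rank difference of -4.75 ± 1.02 at 0 h and -5.21 ± 4.11 at 2 h had a rho of 0.20 (exact permutation p = 0.672, 1.00 after adjustment).

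**Figure D4:**
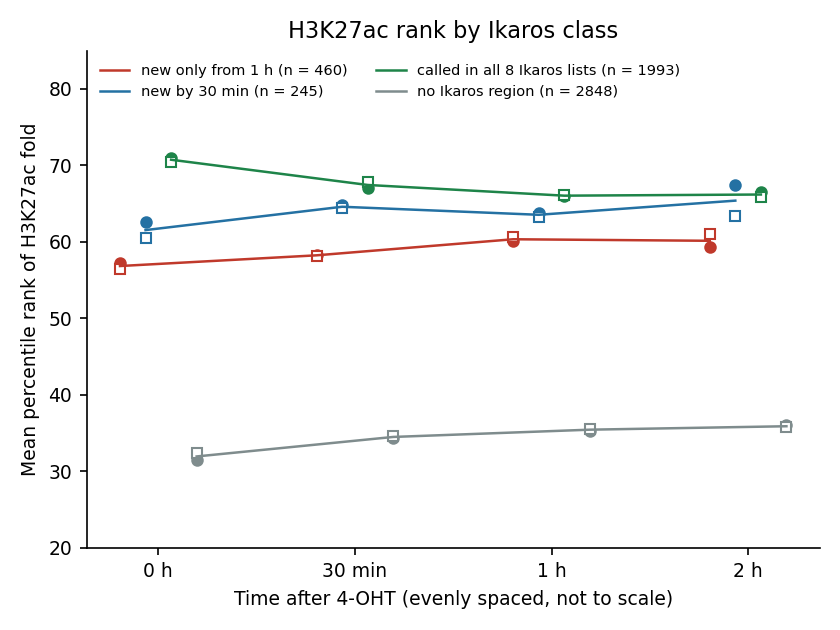
Mean percentile rank of H3K27ac fold (y axis from 20) against time after 4-OHT (evenly spaced, not to scale) for H3K27ac regions called in all 8 lists, by the Ikaros class they overlap, with filled circles for replicate 1, open squares for replicate 2 and lines through the means. The gap between late regions (red, n = 460) and regions called in all 8 Ikaros lists (green, n = 1993) is 13.9 points at 0 h and 6.03 at 2 h.

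Most promoters of late regions belonged to active protein-coding genes. A protein-coding TSS lay within 1 kb of 325 late regions, in 47 of them TSSs of at least 2 such genes, and 23 had other TSSs alone. The 373 protein-coding genes so placed included 362 that were active, meaning H3K27ac within 1 kb of a TSS in both 0 h libraries. Placed the same way, 7871 of 8381 genes were active for all merged regions, 1188 of 1205 for regions called in all 8 lists and 118 of 121 for regions new by 30 min. Within 20 kb of a TSS, late regions reached 682 of 9720 active protein-coding genes (7.02%), which is the background for the gene groups that follow. Gene expression was not measured in these files, and distance does not show which gene a region acts on.

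Among B-lineage transcription factors, 5 of 26 active genes (19.2%) had a late region within 20 kb. The Bcl6 region, near the promoter of this repressor of the germinal centre, lay 959 bp from the TSS with Ikaros folds of 4.13, 3.40, 3.90 and 4.32 and no CHD4 call. A pair of late regions in a Mef2c intron, 15.5 kb and 16.3 kb from the TSS of this B cell survival factor, had the same 5 CHD4 lists each and also lay near a region new by 30 min. The region in a Spi1 intron, 349 bp from the TSS of the gene for PU.1, had Ikaros folds of 5.11, 3.33, 3.54 and 4.29 and CHD4 in 6 lists, both 0 h lists included. The Myb intron region, 2.12 kb from the TSS, had folds of 3.98, 3.65, 3.41 and 2.35 and CHD4 in 2 lists. The Tcf12 intron region, 3.13 kb from the TSS of the gene for the E protein HEB, had 5.25, 3.52, 3.70 and 6.72 and CHD4 in 5 lists. Regions called in all 8 Ikaros lists also lay within 20 kb of Spi1, Myb and Tcf12, so for those 3 genes the late region was an added one.

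The NuRD list had 2 of 14 active genes, both encoding subunits of the complex. A late region covered the TSS of Mbd2, the methyl-CpG binding subunit, with Ikaros folds of 4.26, 4.33, 4.67 and 5.12 and no CHD4 call. Another lay 14.2 kb from the TSS of Mta1, with folds of 3.69, 3.61, 4.16 and 4.82 and CHD4 in 2 h replicate 2 alone.

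In the DNA replication list 4 of 45 active genes (8.89%) had a late region, close to the background. Those at the promoters of Mcm4, a helicase subunit, and Orc5 covered the TSS, and those of Pcna, the sliding clamp, and Pold1, a polymerase subunit, lay 9.73 kb and 4.79 kb away, each also near a region called in all 8 Ikaros lists. Mcm4 had Ikaros folds of 4.61, 5.57, 3.36 and 5.76 and no CHD4 call, unlike Orc5, and both kept H3K27ac in all 8 lists. The mitosis list had 2 of 30, Wee1, a kinase that holds cells before mitosis, at 12.4 kb, and Top2a, the topoisomerase, at 16.7 kb, whose late region is the Igfbp4 promoter described above.

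Ribosomal protein genes had 8 of 82 (9.76%), among them Fau, Rpl13a, Rpl15, Rpl30, Rpl34 and Rps2. The Rpl30 promoter had Ikaros folds of 3.18, 5.73, 4.16 and 5.34, lowest in 1 h replicate 1. The Rpl34 region, 12.1 kb from the TSS, was called for CHD4 in 7 lists, both 0 h lists included. The Fau region lay 10.7 kb from the TSS, and the Rps2 region, 2.06 kb away, lies also 3.21 kb from Rpl3l, which was not active here.

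The splicing list had 3 of 36 (8.33%), each within 1 kb of the TSS. The promoter of Sf3b2, a U2 snRNP subunit, had Ikaros folds of 5.97, 7.55, 2.87 and 7.68, with 2 h replicate 1 far below the other libraries. The promoter of Prpf19, a spliceosome ubiquitin ligase, had 4.55, 5.11, 6.49 and 7.61, and that of Hnrnpa2b1 had 4.29, 4.52, 3.37 and 5.85. CHD4 was called at 1 of these 3, Prpf19, in 1 h replicate 2 alone.

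In the IL-7 receptor and STAT5 list 2 of 18 active genes had a late region, Jak1, the receptor's kinase, at 19.7 kb with Ikaros folds of 4.49, 3.35, 4.01 and 3.55, and Mcl1, an anti-apoptotic BCL2 family member, at 466 bp with 4.25, 5.79, 4.94 and 6.09. Neither had a CHD4 call. Socs3, the feedback inhibitor, was not active and had a late region 16.5 kb away with no H3K27ac call in any list. The BCL2 family list had 1 of 10 active, Mcl1 again, and Pmaip1, which was not active, at 7.41 kb. Glycolysis had 1 of 19, Gpi1, glucose-6-phosphate isomerase, at 3.27 kb with CHD4 in 1 h replicate 1 and 2 h replicate 1. The Notch list had 1 of 10, Maml2, a Notch coactivator, in whose intron the late region had 5.53, 5.58, 3.27 and 6.56 with no CHD4 or H3K27ac call.

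No late region lay within 20 kb of an active gene in 5 lists. These were the 15 active genes that the study named as quickly repressed, 29 of pre-B and B cell receptor signalling, 25 of G1/S control, 21 integrin and focal adhesion genes and 17 immediate early genes. Regions called in all 8 Ikaros lists, in contrast, lay within 20 kb of 12 of the 17 quickly repressed genes and 19 of the 32 genes of pre-B and B cell receptor signalling, active or not. Those regions are more numerous, 2305 against 610, and reached 12.1% of all protein-coding genes against 3.78% for late regions, so the counts are not on the same footing. The lists were chosen with earlier results of these data known, and nothing is called particular to any of them.

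**Figure D5:**
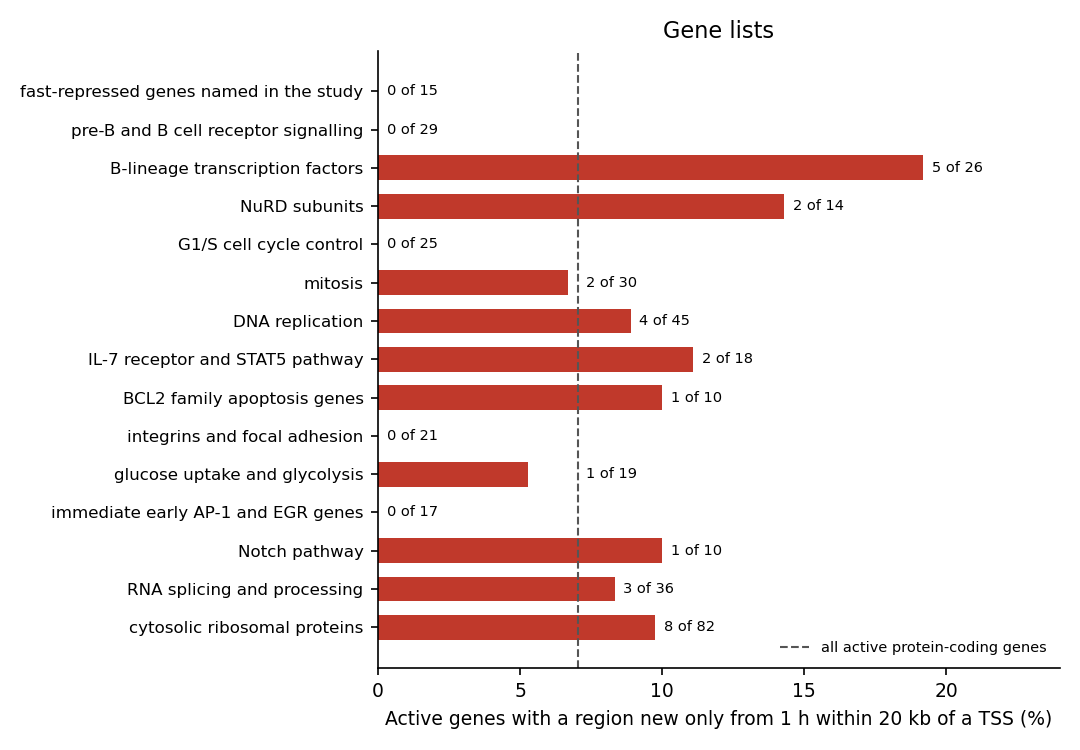
Percent of active genes in each list with a late region within 20 kb of a TSS (bars from 0, with the count beside each bar), and the same share over all active protein-coding genes as a dashed line at 7.02%. The bar of B-lineage transcription factors (5 of 26) is the longest, and 5 lists have none.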

How the data were processed

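ChIP-seq of HA-Ikaros, CHD4 and H3K27ac was measured at 4 times in 2 replicates. Per the study's methods, the authors mapped read pairs on mm10 by Bowtie2 2.4.2, marked duplicates with Picard 2.23.7 and called peaks with MACS2 2.2.7.1, in broad mode for CHD4, with deepTools 3.5.0 for tracks. There is 1 list per sample, and the lists' names say that input was used, which the methods do not state; settings for 30 min are not given in the sources used here. The deposited lists hold, for each peak, the fold (ratio to local background) and the −log10 p-value and −log10 q-value, thresholded by the authors at q of 0.05, or 0.1 for broad lists. They hold no counts.

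Lists were joined with Python 3.11.15 (numpy 2.4.6, scipy 1.17.1, pandas 2.3.3), on GRCm38.p6 sequence (mm10 coordinates, read with pysam 0.24.0) and GENCODE annotation. Summit heights and mean coverage were recovered from fold and p, with 99.9 to 100% of heights within 0.02 of a whole fragment; the recovery was tested on simulated data and cannot return a whole-number coverage. Members without a recovered height were left out of height values only (2 or 3 of 610). Each trend has 1 value per library, with exact two-sided permutation over 40320 pairings and Benjamini-Hochberg adjustment over 7 trends. Samples were grouped by their labels.

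The members and lists were chosen with earlier results of these data known. Regions named are the 8 of highest mean Ikaros rank, the 5 of highest rank with CHD4 at 1 h and 2 h but not 0 h, up to 5 each with H3K27ac lost or gained, listed genes within 20 kb of a member, and 3 to each side of the rule's edge. A few items that this rule names are not reported here. Alternatives were stricter peaks, equal-size lists, 50% overlap, position, summit fragments, the replicate block and leaving out each library. The sources do not say whether replicate numbers pair samples across times. Across regions, correlations of same-numbered libraries' deviations ran from -0.0147 to 0.0985. These leave out any shift shared by a whole replicate, so they cannot show that pairing is absent.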

Additional observations from a re-analysis of the deposited data

How the results depend on the processing

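The H3K27ac share had rho 0 and so no direction, and its alternatives ran from -0.49 to 0.31. Of 87 alternatives to the other 6 trends, 75 did not change sign or side of the threshold by rho, 9 changed sign and 3 passed. By r, 8 passed, 5 of them by r alone: the CHD4 share and its gap to regions called in all 8 Ikaros lists, each in equal-size CHD4 lists and in classes from equal-size Ikaros lists, and that gap in distal regions. The trend of the H3K27ac rank against regions called in all 8 Ikaros lists kept its direction throughout and passed the test in distal regions (rho 0.98), in classes from equal-size Ikaros lists (0.93, adjusted exact permutation p = 0.0222) and without 2 h replicate 1, with 0.83 to 0.97 when each library was left out. Ranked by summit fragments in place of fold, that trend was weaker and did not pass. Its rho was 0.73 (exact permutation p = 0.0548, adjusted p = 0.128) and its r 0.70 (permutation p = 0.0464, adjusted p = 0.0951). The CHD4 share at late regions had r 0.80 in classes from equal-size Ikaros lists (permutation p = 0.0194, adjusted p = 0.0454) and rho 0.83 (exact permutation p = 0.0198, adjusted p = 0.0694). The trends that changed sign had a reported rho between -0.15 and 0.20 and were not called. The CHD4 gap to regions new by 30 min was 0.39 in equal-size Ikaros lists, 0.10 in distal regions and -0.37 to 0.33 when each library was left out. The H3K27ac rank against regions without Ikaros was 0.39 in equal-size lists, -0.78 by summit fragments and -0.39 to 0.22 when each library was left out. The CHD4 gap to regions called in all 8 lists ran from 0.05 to 0.78 over alternatives that keep every library. The rank against regions new by 30 min was -0.20 by summit fragments and -0.09 to 0.68 when each library was left out. In the replicate block fit, CHD4 at late regions had rho 0.83 (exact permutation p = 0.0347, adjusted p = 0.122) and the rank against regions called in all 8 lists 0.88 (exact permutation p = 0.0208, adjusted p = 0.122), and the block changed no call. The number of late regions was 77 in equal-size lists and 721 to 1096 when each library was left out of the rule, which then asks for fewer lists. It was 1096 without 30 min replicate 1, 1013 without 1 h replicate 1 and 924 without 2 h replicate 1. CHD4 gains were 10 in equal-size lists. H3K27ac losses were 3 with −log10 q of at least 3, 0 in equal-size lists and 8 with 50% overlap, and gains 6, 0 and 7. The share within 1 kb of a TSS was 62.7% with −log10 q of at least 3, 66.2% in equal-size lists and 65.1% at 3 kb. The causes were not tested. The depth of CHD4 is unknown and limits its comparison between libraries.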
